A study of Drosophila melanogaster with 20 samples.

Results

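The insulin signalling genes described here are InR, chico, Pdk1, Akt, foxo, S6k, Tsc1 and gig of Drosophila melanogaster. They were found by symbol or synonym among the probe sets whose annotation names 1 gene. This gave 9 probe sets, since Pdk1 has 2, out of 14010 on the array, and 8 of the 9 genes listed. Pi3K92E, which encodes the catalytic subunit of PI3K, matched no such probe set and was left out.

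The expression of these genes was measured on 20 Affymetrix DrosGenome1 arrays, 4 for each of 5 groups, with RNA of 30 old adult males per sample. MnSOD flies carried 1 insertion of the transgene, the single transformant line MnSOD(2)22, together with the transactivator line rtTA(3)E2, and were sampled on doxycycline (DOX) at day 73, on DOX at day 83, and without DOX at day 73. Doxycycline is the antibiotic that lets rtTA switch the transgene on, and MnSOD, made from the gene Sod2, is the superoxide dismutase of mitochondria. Control flies, from Oregon R crossed to the same rtTA(3)E2 line, carried the transactivator and no MnSOD transgene, and were sampled with DOX and without it. Day 83 on DOX was chosen to match day 73 without DOX in survival. The sample labels give day 73 for the control flies and the design text gives day 78. The food of every group, with or without DOX, also held ampicillin.

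Insulin-like peptides bind the receptor InR, which recruits the substrate chico and activates PI3K. The lipid that PI3K makes brings Pdk1 and Akt to the membrane, where Pdk1 phosphorylates Akt. Akt keeps the transcription factor foxo out of the nucleus and restrains the complex of Tsc1 and gig, which holds back the TOR kinase, so that TOR can activate S6k and growth. Reduced activity of the pathway is known to extend the life of flies, worms and mice. Much of its control acts on the phosphorylation and location of proteins, which these arrays did not measure.

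Sod2 gave RMA values (log2 expression, normalized across all arrays) of 12.36 to 12.61 in MnSOD +DOX flies at day 73 and 12.22 to 12.26 at day 83, against 8.36 to 8.47 in MnSOD -DOX flies. It ranged over 7.59 to 8.14 on control arrays labelled +DOX and 7.38 to 7.67 on those labelled -DOX. The names of the control groups are in doubt: Mtk, an antimicrobial peptide gene, was 3.40 higher on the log2 scale on control arrays labelled +DOX than on those labelled -DOX. This direction opposes the study's, and exchanging the names of the 2 control groups turns it. Each comparison that uses these groups is therefore given both ways, and the choice moves the calls over the whole array as well. The DOX-corrected comparison called 311 probe sets higher and 530 lower at day 73 as labelled, and 656 higher and 642 lower with the names exchanged. At day 83 it called 1139 higher and 1329 lower as labelled, and 858 higher and 1471 lower with the names exchanged. The counts with the names exchanged are those that the paper states at both ages. Which naming of the arrays is right was not tested. Replicates 1 to 3 of the control arrays labelled +DOX also stood apart, with mean values of the bacterial spike-in probe sets of 8.41, 7.98 and 8.09, against 9.36 to 10.24 on the 17 other arrays. The mean of the 18S rRNA probe sets on these 3 arrays was 8.84, 3.94 and 5.44, against 3.34 to 3.73 on the 17 others. The difference between the 3′ and 5′ probe sets of control transcripts, a measure of RNA quality, averaged 1.36 on control arrays labelled +DOX and 2.41 on those labelled -DOX (exact permutation p = 0.0286). Replicate 1 of the control arrays labelled -DOX had the highest 3′ minus 5′ value of the 20, 3.35, against 1.96 to 2.30 on the others of its group. Of the 20 arrays it was also the highest for S6k, chico and Tsc1 and the lowest for InR and foxo. The part of RNA quality in these values was not tested. The array of MnSOD +DOX day 83 replicate 1 had the lowest median of the 20, 5.49.

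Across the 5 groups the genes of the pathway differed modestly. The mean of Pdk1 (probe set 142677_s_at) spanned 0.56 on the log2 scale from its highest to its lowest group, a 1.47-fold range, and that of Akt 0.46. S6k spanned 0.45, InR 0.40, chico 0.28 and gig 0.26. The second Pdk1 probe set, 141986_at, spanned 0.15, foxo 0.18 and Tsc1 0.23, and the values of these 3 probe sets overlapped between every pair of groups. Over the 10 pairs of groups and 9 probe sets, 25 of 90 comparisons had no overlap of values (27.8%), against 22.3% over all probe sets of the array, where the share ranged over 11.9% to 32.8% by pair. A pair of groups of 4 arrays cannot give a two-sided exact permutation p below 0.0286, which these 25 reached, and after Benjamini-Hochberg adjustment over the 90 the smallest was 0.103. RNA came from whole flies, in which fewer cells of a type and less RNA per cell cannot be told apart. RMA values of different probe sets are not on a common scale, so no gene's level is set against another's.

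**Figure D1:**
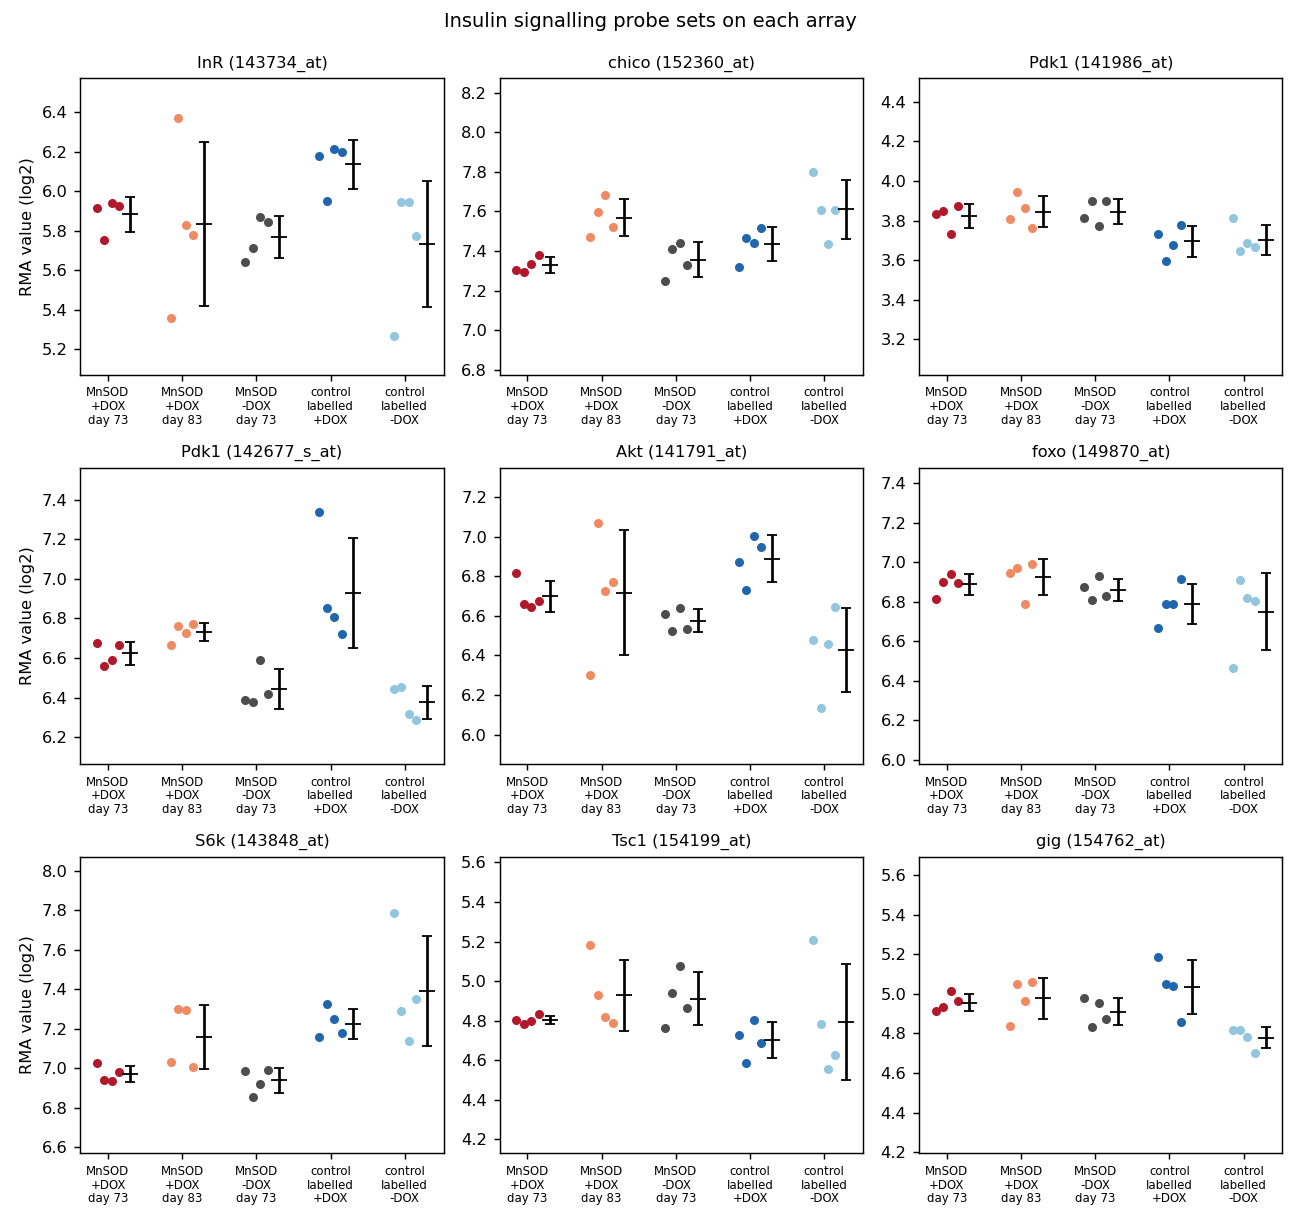
RMA values (log2, vertical axis) of the 9 insulin signalling probe sets on each of the 20 arrays, by group on the horizontal axis; points are arrays, and the black bar is the mean with 1 SD (n = 4), with the same span of 1.5 log2 units in every panel. Pdk1 (142677_s_at) and Akt were highest on control arrays labelled +DOX and lowest on those labelled -DOX, while S6k was lowest in MnSOD -DOX flies and MnSOD +DOX flies at day 73.

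InR, the single insulin receptor gene of the fly, was highest on control arrays labelled +DOX. Its values in MnSOD +DOX flies were 5.92, 5.75, 5.94 and 5.92 at day 73 and 5.36, 6.37, 5.83 and 5.78 at day 83, against 5.64, 5.71, 5.87 and 5.84 in MnSOD -DOX flies. On control arrays they were 6.18, 5.95, 6.21 and 6.20 in those labelled +DOX, against 5.27, 5.94, 5.94 and 5.77 in those labelled -DOX. Control arrays labelled +DOX did not overlap those labelled -DOX, the MnSOD +DOX flies of day 73 or the MnSOD -DOX flies. The gap to the control arrays labelled -DOX was small, since their highest arrays lay just under the lowest array labelled +DOX. The spread at day 83 was the widest of the groups, with an SD of 0.42 against 0.09 at day 73, and the lowest array there was replicate 1.

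The gene chico encodes the insulin receptor substrate. It was highest on control arrays labelled -DOX, with MnSOD +DOX flies at day 83 next. The values of chico in MnSOD +DOX flies were 7.30, 7.29, 7.34 and 7.38 at day 73 and 7.47, 7.60, 7.68 and 7.52 at day 83, against 7.25, 7.41, 7.44 and 7.33 in MnSOD -DOX flies. On control arrays chico stood at 7.32, 7.46, 7.44 and 7.52 in those labelled +DOX, against 7.80, 7.61, 7.44 and 7.61 in those labelled -DOX. All 4 arrays of day 83 lay above all 4 of day 73 and all 4 of MnSOD -DOX flies, and control arrays labelled -DOX lay above those of day 73. The other neighbours in the order overlapped. Over the 20 arrays, the gene with the most similar profile to chico was Ocrl, which encodes a phosphoinositide phosphatase, with a Pearson r of 0.85.

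The kinase gene Pdk1 had 2 probe sets that did not share a pattern. The first, 142677_s_at, carries the manufacturer's mark for probes that match several transcripts. Its values in MnSOD +DOX flies were 6.68, 6.56, 6.59 and 6.67 at day 73 and 6.67, 6.76, 6.72 and 6.77 at day 83, against 6.39, 6.38, 6.59 and 6.42 in MnSOD -DOX flies. Those of control arrays were 7.34, 6.85, 6.81 and 6.72 in the ones labelled +DOX, against 6.44, 6.45, 6.32 and 6.29 in the ones labelled -DOX. Of the 10 pairs of groups 6 did not overlap, the most of any of the 9 probe sets. The day 83 arrays overlapped those of day 73 and those of control flies labelled +DOX, and MnSOD -DOX flies overlapped both the day 73 arrays on DOX and control flies labelled -DOX. Replicate 1 of the control arrays labelled +DOX was the highest of the 20 at 7.34, and it was also the array with the highest 18S rRNA mean, whose part in the value was not tested. The gene closest to it in profile was CG17931 (r = 0.92 over the 20 arrays). The second probe set, 141986_at, averaged 3.82 ± 0.06 in MnSOD +DOX flies at day 73 and 3.85 ± 0.08 at day 83, against 3.85 ± 0.06 in MnSOD -DOX flies. On control arrays it averaged 3.69 ± 0.08 in those labelled +DOX and 3.70 ± 0.08 in those labelled -DOX (SD, n = 4 each).

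Akt, the kinase that Pdk1 activates, was ordered over the groups as Pdk1 (142677_s_at) was. The values of Akt in MnSOD +DOX flies were 6.82, 6.66, 6.64 and 6.67 at day 73 and 6.30, 7.07, 6.73 and 6.77 at day 83, against 6.61, 6.52, 6.64 and 6.54 in MnSOD -DOX flies. On control arrays Akt stood at 6.87, 6.73, 7.0 and 6.95 in those labelled +DOX, against 6.48, 6.13, 6.46 and 6.64 in those labelled -DOX. Control arrays labelled +DOX lay above those labelled -DOX and above MnSOD -DOX flies, and MnSOD +DOX flies at day 73 lay narrowly above the same 2 groups. Day 83 overlapped every group, with replicate 1 its lowest array, as for InR. LanB1, a laminin subunit gene, had the profile most like that of Akt (r = 0.86).

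The transcript of foxo, the transcription factor that insulin signalling restrains, had the smallest span of group means among the genes with 1 probe set. It averaged 6.89 ± 0.05 in MnSOD +DOX flies at day 73 and 6.93 ± 0.09 at day 83, against 6.86 ± 0.05 in MnSOD -DOX flies. On control arrays foxo averaged 6.79 ± 0.10 in those labelled +DOX and 6.75 ± 0.20 in those labelled -DOX (SD, n = 4 each). No pair of groups was free of overlap.

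Tsc1 and gig encode the 2 partners of the complex that inhibits TOR, and they were not ordered alike. Tsc1 averaged 4.80 ± 0.02 in MnSOD +DOX flies at day 73 and 4.93 ± 0.18 at day 83, against 4.91 ± 0.13 in MnSOD -DOX flies, and 4.70 ± 0.09 on control arrays labelled +DOX, against 4.79 ± 0.29 on those labelled -DOX (SD, n = 4 each). The groups overlapped throughout. For gig, the fly counterpart of Tsc2, the values on control arrays were 5.19, 5.05, 5.04 and 4.86 in those labelled +DOX, against 4.82, 4.82, 4.78 and 4.70 in those labelled -DOX, the lowest group. The values of gig in MnSOD +DOX flies were 4.92, 4.93, 5.01 and 4.96 at day 73 and 4.84, 5.05, 4.96 and 5.06 at day 83, against 4.98, 4.84, 4.96 and 4.87 in MnSOD -DOX flies. Thus the control arrays labelled -DOX lay below each of the other 4 groups, which overlapped among themselves. The order of the 5 group means was the same in gig, Akt and Pdk1 (142677_s_at).

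S6k, the kinase through which TOR promotes ribosome function, was higher in both control groups than in MnSOD flies of day 73. Its values in MnSOD +DOX flies were 7.02, 6.94, 6.94 and 6.98 at day 73 and 7.03, 7.30, 7.29 and 7.0 at day 83, against 6.99, 6.86, 6.92 and 6.99 in MnSOD -DOX flies. In control flies they were 7.16, 7.32, 7.25 and 7.18 on arrays labelled +DOX, against 7.79, 7.29, 7.14 and 7.35 on those labelled -DOX. Both control groups lay above the MnSOD flies of day 73 with and without DOX, and the day 83 arrays lay above MnSOD -DOX flies. The control groups overlapped each other, and replicate 1 of those labelled -DOX was the highest array of the 20. The closest profile was that of CG12825 (r = 0.88). The next were Cyp1 (r = 0.86) and Mst98Cb (r = 0.86), the latter a testis gene of the marker list below. Such lower ranks are given for S6k alone, and Mst98Cb was named after its value was seen.

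Markers of other tissues moved between the groups as well. The summed linear level of 10 testis markers, Mst98Cb among them, ranged over 8787 to 9823 in MnSOD +DOX flies at day 73 and 10660 to 11660 at day 83, against 7043 to 8453 in MnSOD -DOX flies. On control arrays it ranged over 9245 to 11550 in those labelled +DOX and 11460 to 14270 in those labelled -DOX. The MnSOD -DOX flies were thus lowest and the control arrays labelled -DOX highest, as for S6k. The 9 accessory gland markers summed to 6049 to 7190 in MnSOD +DOX flies at day 73 and 4298 to 6041 at day 83, against 7077 to 7670 in MnSOD -DOX flies, and to 6396 to 6994 on control arrays labelled +DOX, against 6261 to 7588 on those labelled -DOX. The 7 gut markers summed to 22300 to 26660 at day 73 and 20640 to 24580 at day 83, against 18580 to 20840 in MnSOD -DOX flies, and to 17010 to 17990 on control arrays labelled +DOX, against 21900 to 26340 on those labelled -DOX. The control arrays labelled +DOX were the lowest of all for the gut. The 7 muscle markers summed to 5484 to 6483 at day 73 and 6148 to 6412 at day 83, against 5448 to 5540 in MnSOD -DOX flies, and to 4096 to 5505 on control arrays labelled +DOX, against 3616 to 4182 on those labelled -DOX. The 10 markers of the female germline and yolk lay between 774.9 and 1093 in every group, and at most 1 marker of any list fell below the array median in a group. All flies were male, so a value above the array median does not by itself show that a marker was expressed. The part of these tissues in the results for the insulin signalling genes was not tested.

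The first comparison asked what DOX did in flies without the transgene. Pdk1 (142677_s_at) and Akt were higher on control arrays labelled +DOX than on those labelled -DOX, and no insulin signalling gene was called lower. A probe set was called where limma gave an adjusted p under 0.01, over all probe sets, and a fold of at least 1.2. Thus 2 of 9 probe sets were called, beside 26.2% of all probe sets (12.1% higher and 14.1% lower), a share close to the background. The change in Pdk1 was 0.56 on the log2 scale (standard error 0.0962, adjusted p = 0.000197), and it stayed called without any 1 of the 20 arrays. The change in Akt was 0.46 (standard error 0.118, adjusted p = 0.00364). For gig the change was 0.26 (adjusted p = 0.0073), just under the fold minimum, and for InR 0.40 (adjusted p = 0.0347). Values of chico, S6k and foxo were -0.18, -0.17 and 0.04, with adjusted p of 0.0616, 0.184 and 0.697.

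With the names of the control groups exchanged these changes keep their size and turn their sign. Akt lost its call without replicate 1 or 3 of the control arrays labelled +DOX or replicate 2 of those labelled -DOX (adjusted p up to 0.0198 in limma), and gig gained one without replicate 4 labelled +DOX or replicate 1 labelled -DOX (change up to 0.31). Without replicates 1 to 3 of the control arrays labelled +DOX, which leaves 1 array whose spread is taken from the other groups, Pdk1 stood at 0.34 (adjusted p = 0.173) and Akt at 0.52 (adjusted p = 0.294). No member was then called, beside 0.457% of all probe sets. With the spike-in mean as a covariate they stood at 0.47 (adjusted p = 0.0972) and 0.32 (adjusted p = 0.366), and 0.721% of all probe sets were called.

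The second comparison asked how MnSOD flies on DOX differed from MnSOD flies without it. At the same chronological age, day 73, none of the 9 probe sets was called in limma, beside 0.664% of all probe sets. An unadjusted p under 0.05 was reached by 0 of the 9, beside 1425 of all 14010. The largest change was that of Pdk1 (142677_s_at) at 0.18 (95% interval -0.02 to 0.38, adjusted p = 0.572). For Akt it was 0.12 (interval -0.12 to 0.37), for InR 0.11 (-0.20 to 0.43), for foxo 0.03 (-0.14 to 0.20), for chico -0.03 (-0.19 to 0.13), for S6k 0.03 (-0.18 to 0.24), for gig 0.05 (-0.10 to 0.19) and for Tsc1 -0.11 (-0.34 to 0.12). These intervals leave room for changes past the fold minimum, which is 0.263 on the log2 scale, in Pdk1, Akt and InR (higher) and Tsc1 (lower), and not in chico, foxo, S6k or gig.

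At equal survival, day 83 with DOX against day 73 without, again none of the 9 was called, beside 9.27% of all probe sets. An unadjusted p under 0.05 was reached by 3 of the 9, beside 4852 of all 14010. The 3 were Pdk1 (142677_s_at) at 0.29 (standard error 0.0962, adjusted p = 0.0369), chico at 0.21 (standard error 0.0758, adjusted p = 0.0504) and S6k at 0.22 (standard error 0.101, adjusted p = 0.126), each higher on DOX with no overlap of the arrays. In this pair of groups 26.9% of all probe sets had no overlap. Changes in Akt, InR, foxo and gig were 0.14, 0.07, 0.07 and 0.07, with adjusted p of 0.414, 0.79, 0.605 and 0.537. Without replicate 1 of day 83, the array with the low median, Akt stood at 0.28 (adjusted p = 0.0592) and InR at 0.23 (adjusted p = 0.279), while without replicate 2 InR turned to -0.11. Pdk1 gained a call without replicate 1 of the control arrays labelled +DOX, which enters this fit through the shared spread. Within MnSOD flies on DOX, day 83 against day 73 gave no call among the 9 (3.69% of all probe sets). An unadjusted p under 0.05 was reached by 1 of the 9, beside 4262 of all 14010. The 1 was chico at 0.24 (standard error 0.0758, adjusted p = 0.0389).

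**Figure D2:**
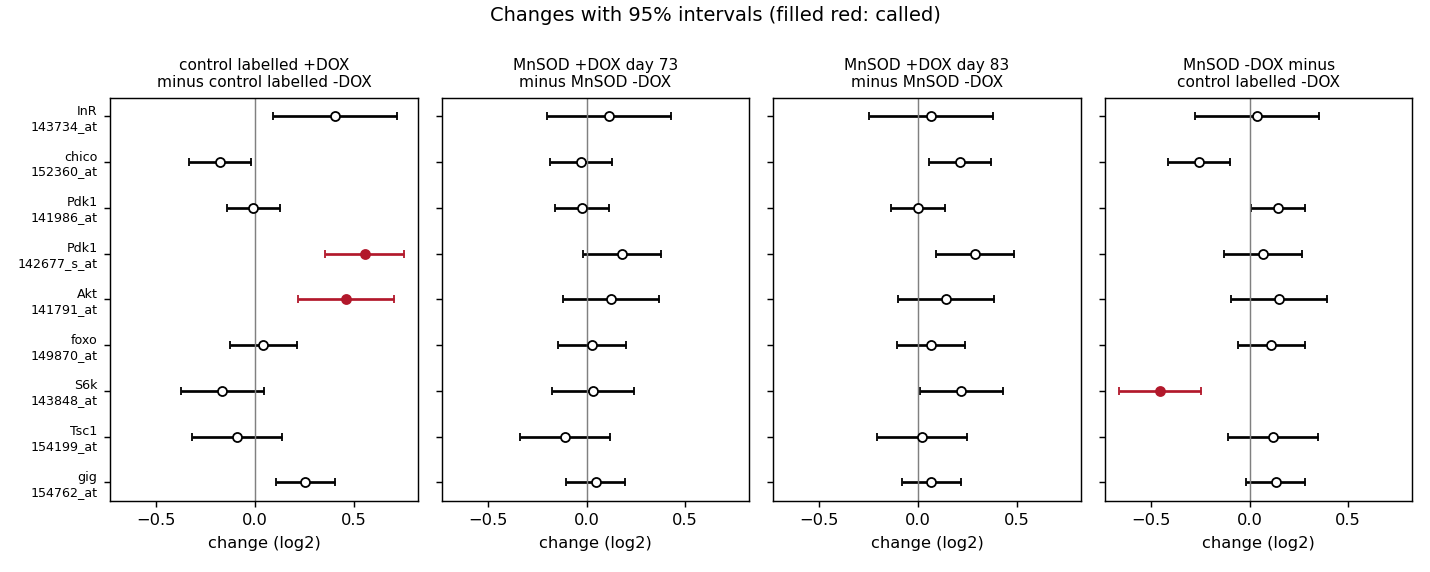
Changes (log2, horizontal axis) of the 9 insulin signalling probe sets in 4 comparisons, from limma with 95% intervals; filled red points were called. Pdk1 (142677_s_at) and Akt were called for control arrays labelled +DOX against those labelled -DOX, S6k for MnSOD -DOX against control labelled -DOX, and none for MnSOD +DOX against MnSOD -DOX at either age.

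The third comparison, the main one in the study's methods, took the change of MnSOD flies on DOX minus that of control flies. With the groups as labelled, chico was called at equal survival and no insulin signalling gene at equal age. At day 73 none of the 9 was called, beside 6.0% of all probe sets. The 1 of the 9 with an unadjusted p under 0.05, beside 4805 of all 14010, was Pdk1 (142677_s_at) at -0.37 (standard error 0.136, adjusted p = 0.058). For Akt, InR and gig the values were -0.34, -0.29 and -0.21, and for S6k, chico and foxo 0.20, 0.15 and -0.01, with adjusted p of 0.148 or more. At day 83 chico was higher by 0.39 (standard error 0.107, adjusted p = 0.00885), 1 call of 9 beside 17.6% of all probe sets. For S6k the value was 0.38 (standard error 0.143, adjusted p = 0.0419). Those of InR, Akt, Pdk1, gig and foxo were -0.34, -0.32, -0.27, -0.19 and 0.02, with adjusted p of 0.132 or more. The call of chico was lost without any 1 of 16 of the 20 arrays (change 0.32 to 0.45, adjusted p 0.00339 to 0.0233), those of every group among them. It was kept without MnSOD +DOX day 83 replicate 1, control labelled +DOX replicate 4, control labelled -DOX replicate 3 or MnSOD -DOX replicate 3.

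With the names of the control groups exchanged, the reading that gives the counts stated in the paper, other genes were called. Pdk1 (142677_s_at) was then higher by 0.74 at day 73 (adjusted p = 0.00195), the 1 call of 9 beside 9.26% of all probe sets. At day 83 Pdk1 was higher by 0.84 (adjusted p = 0.000382) and Akt by 0.60 (adjusted p = 0.00915), 2 calls of 9 beside 16.6% of all probe sets. Akt at day 73 stood at 0.58 (adjusted p = 0.0147), while chico at day 83 stood at 0.03 (adjusted p = 0.821). For Pdk1, Akt, InR and gig the exchange thus set the sign of the corrected change at both ages, and the change not corrected for DOX was positive in all 4.

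**Figure D3:**
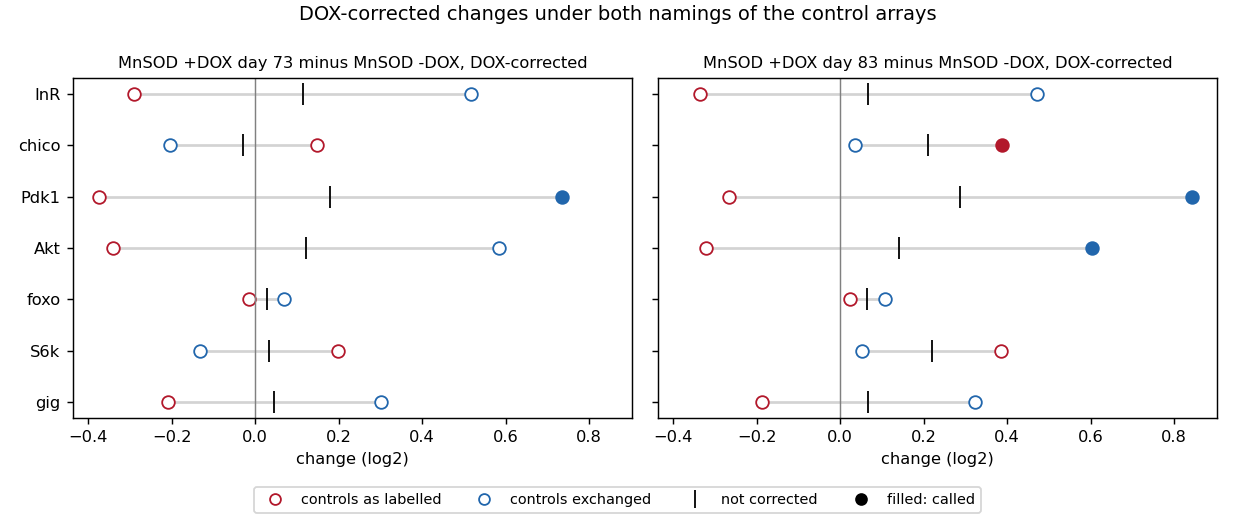
DOX-corrected changes (log2, horizontal axis) of 7 insulin signalling genes (Pdk1 by probe set 142677_s_at) at day 73 and day 83, with control groups as labelled (red) or exchanged (blue); black ticks are the changes of the MnSOD line alone, and filled points were called. As labelled, chico was called at day 83 (0.39); exchanged, Pdk1 was called at both ages (0.74 and 0.84) and Akt at day 83 (0.60).

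The fourth comparison set the MnSOD line against the control line without DOX. S6k was lower in MnSOD -DOX flies than on control arrays labelled -DOX, by a change of -0.45 (standard error 0.101, adjusted p = 0.00397), 1 call of 9 beside 6.55% of all probe sets. The change in chico was -0.26 (adjusted p = 0.0252), and that in Pdk1 (142677_s_at) was 0.07 (adjusted p = 0.676). The call of S6k was lost without MnSOD -DOX replicate 1, 2 or 3 or control -DOX replicate 1 (change -0.54 to -0.32, adjusted p up to 0.017). In the same comparison 6 of 10 testis markers were called lower, with a median change of -0.50, and the 3′ minus 5′ value averaged 1.60 in MnSOD -DOX flies and 2.41 on control arrays labelled -DOX. Of the 7 gut markers 2 were called higher and 2 lower. Called higher were also 3 of 9 accessory gland and 1 of 7 muscle markers. The lines also differed in genetic background, since the paper gives a recipient strain for the transgene other than Oregon R. Age may differ too, as the design text gives day 78 for control flies. Sod2 was 8.36 to 8.47 in MnSOD -DOX flies, against 7.38 to 7.67 on control arrays labelled -DOX. These differences between the lines cannot be told apart, and the part of tissues and of RNA quality in the S6k call was not tested. With the control groups exchanged, S6k stood at -0.29 (adjusted p = 0.0309) and Pdk1 was called at -0.49 (adjusted p = 0.00089), 1 call of 9 beside 18.0% of all probe sets. In both readings S6k was lower in MnSOD -DOX flies.

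The other genes of the pathway, 37 matched of 59 listed, took in ligands, their binding proteins, TOR and its inputs and outputs, regulators of foxo and metabolic targets. On control arrays labelled +DOX 8 were higher and 2 lower than on those labelled -DOX (27.0% called beside 26.2% of all probe sets), with a median change of 0.09 against -0.05 over all probe sets. Of these calls, 6 were among the inputs to TOR and its outputs. Of 11 nutrient and stress inputs to TOR 4 were higher and none lower. Among them scyl, a stress-induced inhibitor of TOR, was higher by 0.80 (standard error 0.145, adjusted p = 0.000283), RagC-D, a GTPase subunit that carries the amino acid signal, by 0.43, and alc and SNF4Agamma, the beta and gamma subunits of AMPK, by 0.33 and 0.34. For SNF4Agamma a dimmer probe set, 150301_at, was called lower by a change of -0.33, so its direction depends on the probe set. Of the 3 outputs of TOR, eIF4E1, the cap-binding translation factor, was higher by 0.63 (adjusted p = 2.94e-05) and REPTOR, a transcription factor that TOR represses, by 0.47.

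None of the 6 matched genes of the TOR complexes was called by its main probe set, and mTor itself (Tor in the plot of pathway genes) had a value of -0.03 (adjusted p = 0.78). PRAS40, an inhibitory partner of TOR, had 4 probe sets, of which 2 dimmer ones were called lower by changes of -0.41 and -0.47. The brightest had a change of 0.25 (adjusted p = 0.0171) and the fourth -0.19 (adjusted p = 0.111), so the direction depends on the probe set. Of 4 regulators of foxo, wdb, a phosphatase subunit that acts on Akt, was higher by 0.44. Of 6 metabolic targets, bmm, the triglyceride lipase, was higher by 0.56, and Pepck1, which encodes an enzyme of gluconeogenesis, was lower with a change of -0.40 (standard error 0.0896, adjusted p = 0.00137). Among the insulin-like peptides listed as ligands Ilp8 was lower with a change of -0.39, and Ilp2 and Ilp7 were not called. Whether each of them acts through InR was not examined. Exchanging the control groups turns all of these signs. With the spike-in covariate 0 of the 37 genes was called, beside 0.721% of all probe sets.

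Within the MnSOD line, where the control names do not enter the estimate, 6 calls were made for flies on DOX against those without it, 1 at day 73 and 5 at day 83. Those of day 83 were 2 of 6 metabolic targets, 1 of 3 ligand binding proteins, 1 of 3 outputs of TOR and 1 of 4 regulators of foxo, and that of day 73 was 1 of the 6 metabolic targets. Pepck1 was higher on DOX at day 73 by 0.55 (standard error 0.0896, adjusted p = 0.000756), the 1 call of 37 (0.664% of all probe sets), and at day 83 by 0.57 (adjusted p = 0.000171). At day 83, 5 of 37 were higher and 0 lower (13.5% beside 9.27%), with a median change of 0.02 against -0.04 over all probe sets. ImpL2, a secreted protein that binds insulin-like peptides, was higher by 0.49 (standard error 0.0766, adjusted p = 0.00015) and bmm by 0.60 (adjusted p = 0.0004). Sirt1, a deacetylase that acts on foxo in other animals, was higher by 0.47 (adjusted p = 0.00215), and REPTOR-BP, the partner of REPTOR, by 0.50 (adjusted p = 0.00691). Sirt1 was also called between the ages, higher at day 83 than at day 73 by 0.46 (adjusted p = 0.00507). None of the ligands, TOR complex genes or nutrient inputs was called in MnSOD flies. At day 83, 7 of 10 testis markers were called higher and 6 of 9 accessory gland markers lower, and their part in these calls was not tested.

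After correction for DOX as labelled, 1 of the 37 was higher and 1 lower at day 73, and 3 were higher and 4 lower at day 83 (18.9% beside 17.6%). Pepck1 was higher at both ages, by 0.96 and 0.97 (adjusted p = 1.61e-05 and 8.83e-06). The genes called lower were all among those called higher on control arrays labelled +DOX, a change that the correction subtracts. They were eIF4E1 with -0.59 and -0.48 at the 2 ages, and wdb, RagC-D and REPTOR with -0.66, -0.52 and -0.50 at day 83. The others of those genes, scyl, SNF4Agamma, alc and bmm, stood at -0.51, -0.38, -0.04 and 0.04 at day 83 and were not called. ImpL2 and Sirt1 were higher at day 83 by 0.48 and 0.50.

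With the names of the control groups exchanged most of these calls were lost or turned. At day 73, 7 of the 37 were then higher and 0 lower (18.9% beside 9.26%), and at day 83, 6 were higher and 1 lower (18.9% beside 16.6%). The calls at day 73 took in Lip4, a metabolic target, at 1.16, scyl at 0.94 and bmm at 0.78. They also took in SNF4Agamma, by its brighter probe set, at 0.49 and alc at 0.48. Those at day 83 took in bmm at 1.16, scyl at 1.09, REPTOR-BP at 0.73, alc at 0.62 and Ilp8 at -0.52. Pepck1 stood at 0.15 and 0.16 at the 2 ages (adjusted p = 0.369 and 0.317), under the fold minimum. The values of eIF4E1 turned to 0.67 and 0.78 (adjusted p = 0.00206 and 0.000382), called higher at both ages. At day 83 wdb, RagC-D and REPTOR turned to 0.23, 0.34 and 0.43 and were not called (adjusted p = 0.223, 0.0568 and 0.0223), while REPTOR at day 73 was called at 0.55 (adjusted p = 0.00845). ImpL2 kept its call at 0.50 (adjusted p = 0.00229), the 1 gene of the 37 called in the same direction in both readings at day 83, beside none at day 73. As ImpL2 differed by only 0.0065 between the control groups as labelled, the exchange could hardly move its value. Sirt1 stood at 0.43 (adjusted p = 0.0206) and was not called.

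**Figure D4:**
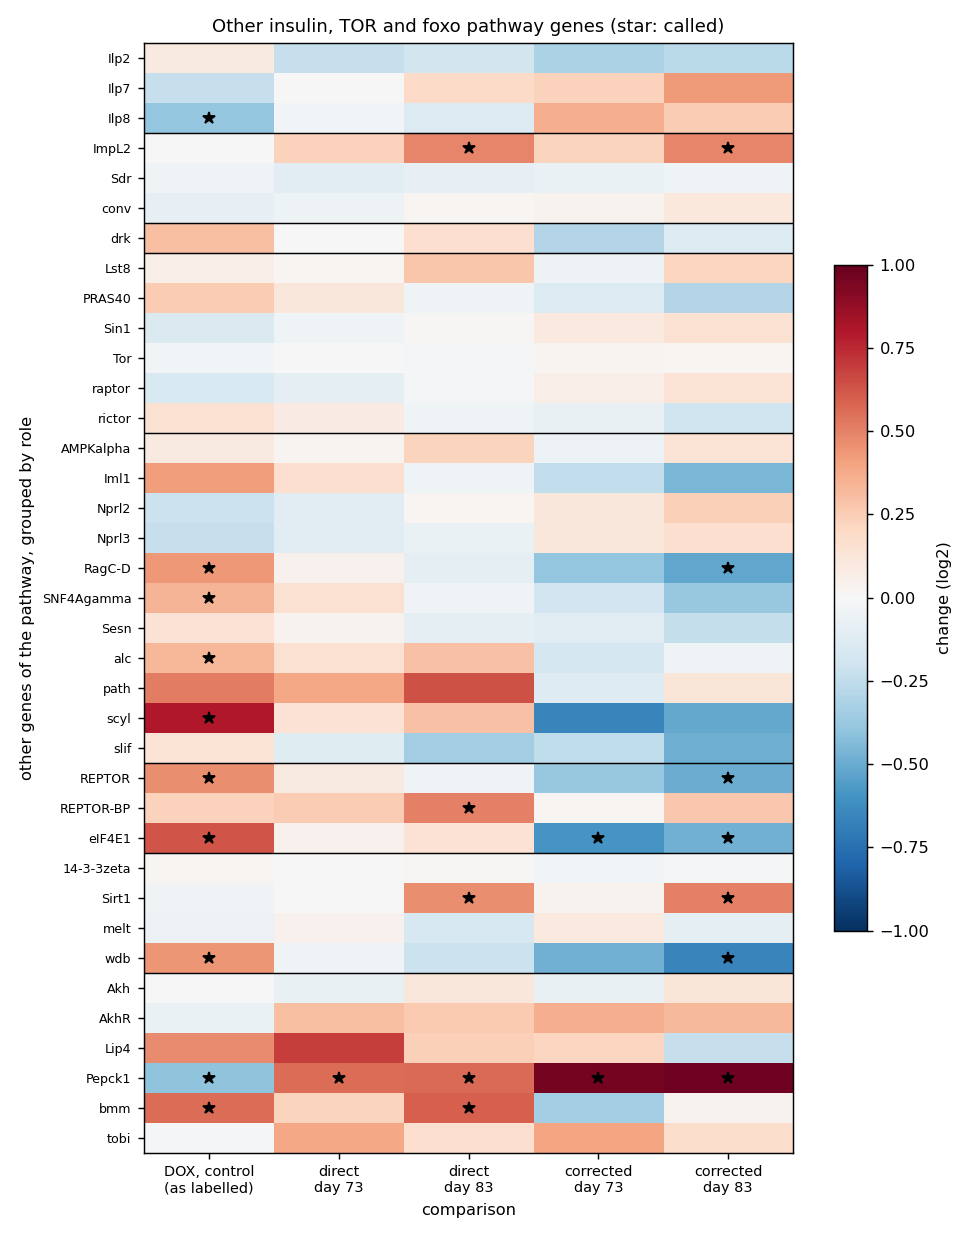
Changes (log2, colour) of 37 other genes of the insulin, TOR and foxo pathway in 5 comparisons (columns), grouped by role from ligands at the top to metabolic targets at the bottom; stars mark calls. Pepck1 was called in all 5 comparisons, lower on control arrays labelled +DOX (-0.40) and higher in MnSOD +DOX flies (0.55 at day 73 and 0.57 at day 83), and the TOR complex genes in none. All columns use the control groups as labelled; with the names exchanged the DOX-corrected changes of Pepck1 were 0.15 and 0.16 and were not called.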

How the data were processed

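Total RNA of adult males had been hybridized to 1-colour Affymetrix DrosGenome1 arrays. The authors processed the arrays jointly with RMA (affy, no version stated) and deposited a table of log2 values, of which each of the 20 columns was used. Intensities before RMA were not analysed here. RMA gives no detection call, and 4 arrays per group limit the precision. The labels call replicates biological and do not say whether cultures were separate, so the p-values reflect the spread among these samples alone, which may be technical.

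All probe sets entered 1 linear model with a mean per group (limma 3.58.1, R 4.3.3), with empirical Bayes moderation and Benjamini-Hochberg adjustment over 14010 probe sets within each of 7 contrasts. The threshold, an adjusted p under 0.01 with a fold of at least 1.2, follows the study's methods. Single values were compared by two-sided exact permutation tests in Python 3.11.15 with scipy 1.17.1. The fit was also run on simulated arrays with known changes and independent noise. They held no array effects like those of the control arrays, so the run does not bear on these. Groups came from the sample labels.

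Annotation named 1 gene for 12444 probe sets, several for 327 and none for 1239. Every probe set of a member is given. For other pathway genes, the probe set with the highest mean represents a gene, and those named were called in at least 1 contrast. For each called member, the gene with the highest Pearson correlation is named. Members and lists were chosen with earlier results of these data known. Alternatives were a fit of fewer groups, replicates as a block, a filter on low means, median centring, array weights, the variance model, the threshold, exchanged control groups, a spike-in covariate, and arrays left out. No sequences or promoter motifs were analysed here.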

Additional observations from a re-analysis of the deposited data

Results flagged for a closer look

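InR on the array of MnSOD +DOX day 73 replicate 2 stood at 5.75, apart from the 3 other arrays of its group (gap over range 0.887). InR on control +DOX replicate 2 stood at 5.95, likewise below the others (0.876). Of 45 groups of 4 values tested, these 2 passed Dixon's 95% critical value, where chance gives about 1 in 20. The DOX-corrected change of chico at day 83, 0.39, is itself a difference between lines: the change on DOX was 0.21 in MnSOD flies and -0.18 in control flies as labelled.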

How the results depend on the processing

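Replicate numbers did not pair the samples: deviations of same-numbered arrays correlated at -0.39 to 0.36 over 40 pairs, 6 of them over 0.1, and 4 of 20 arrays were closest to their own number. With the replicate block chico lost its corrected call at day 83 (adjusted p = 0.014), leaving 0 member calls there; the block changed no other member call. The variance trend also left 0. For that change the block called 1053 higher and 1265 lower over all probe sets, and the variance trend 1170 and 1332. Fits of only the groups in the contrast gave 1 member call for DOX in control flies, 0 for the corrected day 83 change and 0 for the lines, and 6, 4 and 3 other pathway genes for DOX in control flies, the direct day 73 change and the corrected day 83 change. Of all 14010 probe sets these fits called 777 higher and 553 lower for DOX in control flies. They called 189 and 158 for the direct day 73 change, and 839 and 1021 for the corrected day 83 change. For the lines they called 443 and 412.

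An adjusted p under 0.05 with no fold minimum gave 4 member calls for DOX in control flies, 1 for the direct day 83 change, 2 for the corrected day 83 change, 1 for day 83 against day 73 and 2 for the lines. For other pathway genes it gave 16 for DOX in control flies, 8 for the direct day 83 change, 4 for the corrected day 73 change and 11 for the corrected day 83 change. Of all 14010 probe sets this threshold called 2656 higher and 3668 lower for DOX in control flies. It called 1043 and 1891 for the direct day 83 change. For the corrected changes it called 1258 and 1202 at day 73, and 2316 and 2419 at day 83. For day 83 against day 73 it called 612 and 1362, and for the lines 1046 and 1079. Array weights gave 1 member call for the direct day 83 change (Pdk1) and 1 for day 83 against day 73 (chico), and 16, 3, 8, 7 and 12 other pathway genes for DOX in control flies, the direct changes at days 73 and 83 and the corrected changes at days 73 and 83. Of all 14010 probe sets the weights called 2338 higher and 3074 lower for DOX in control flies. They called 332 and 183 for the direct day 73 change, and 953 and 1211 for day 83. For the corrected changes they called 1806 and 1597 at day 73, and 2159 and 1959 at day 83. For day 83 against day 73 they called 477 and 751. The weights turned foxo to -0.029 for DOX in control flies and 0.045 for the corrected day 73 change.

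Without control +DOX replicates 1 to 3 together, that group kept 1 array. Calls over the whole array then fell in the comparisons that use the group, and calls of members and other pathway genes fell with them. For the corrected day 83 change chico stood at 0.30 and lost its call, and foxo turned to -0.10. The direct day 83 change of Pdk1 (142677_s_at) kept its size, 0.29, and gained a call through the shared spread. The spike-in covariate gave 0 members and 0 other pathway genes for DOX in control flies, 0 members and 1 other pathway gene for the corrected day 83 change, 1 for the corrected day 73 change, and foxo at -0.072 for the corrected day 83 change. Of all 14010 probe sets it called 95 higher and 180 lower for the corrected day 73 change, and 334 and 483 for day 83.

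With the control groups exchanged, DOX in control flies gave Pdk1 -0.56, Akt -0.46, InR -0.40, gig -0.26, foxo -0.041, chico 0.18 and S6k 0.17. The corrected day 73 changes became Pdk1 0.74, Akt 0.58, InR 0.52, gig 0.30, foxo 0.069, chico -0.20 and S6k -0.13 (1 member and 7 other pathway genes called), and the corrected day 83 changes Pdk1 0.84, Akt 0.60, InR 0.47 and gig 0.32 (2 members called). Pdk1 between the lines became -0.49. Leaving out each array in turn gave 1 to 3 member calls for DOX in control flies, 0 to 1 for the direct day 83 change, 0 to 1 for the corrected day 83 change, 0 to 2 for the lines, and 0 throughout for the direct and corrected day 73 changes and day 83 against day 73. The calls over all 14010 probe sets moved as well. For DOX in control flies they were 1039 higher and 979 lower without control +DOX replicate 1, and 2236 and 2812 without replicate 4. For the lines they were 260 and 289 without MnSOD -DOX replicate 1, and 633 and 626 without MnSOD +DOX day 83 replicate 1. Other pathway genes ranged over 7 to 14 for DOX in control flies, 4 to 7 for the direct day 83 change, 1 to 4 for the corrected day 73 change and 3 to 10 for the corrected day 83 change, with 1 throughout for the direct day 73 change. Over all probe sets the direct day 83 change had 215 higher and 504 lower without MnSOD -DOX replicate 2. Without control -DOX replicate 1 it had 538 and 1042. The corrected day 73 change had 166 and 350 without MnSOD +DOX day 73 replicate 3. Without control +DOX replicate 4 it had 1095 and 1090. The corrected day 83 change had 783 and 985 without control +DOX replicate 3, and 1771 and 1871 without replicate 4.

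The sign of small changes also turned when 1 array was left out: foxo ranged over -0.053 to 0.095 for DOX in control flies, -0.067 to 0.081 for the corrected day 73 change and -0.029 to 0.12 for the corrected day 83 change, chico over -0.065 to 4.3e-06 for the direct day 73 change and InR over -0.11 to 0.23 for the direct day 83 change.

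Median centring of each array moved the share of higher calls over all probe sets to 61.7% (46.1% without it) for DOX in control flies, 59.0% (32.5%) for the direct day 83 change, 21.2% (37.0%) for the corrected day 73 change and 64.1% (25.7%) for day 83 against day 73; it added gig (0.31, adjusted p = 0.00215) to the member calls for DOX in control flies. Leaving out the 40% of probe sets with the lowest mean removed Tsc1, gig and Pdk1 (141986_at) from the test. Where no cause is given, the cause was not tested.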
